A study of Bos taurus with 50 samples.

Results

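The 7 libraries labelled as coming from cows that were cycling but without progesterone (P4) at week 5 postpartum (CycNoP4) were 4 of week 5 and 3 of week 9, out of 50 libraries of bovine endometrium, and they were chosen by that label alone. All cows were first lactation dairy cows, and each library was made from mRNA of a biopsy of the uterine lining. The other 43 libraries came from cows under P4 influence at week 5 (CycW5, 10 libraries of each week) and from cows not cycling at week 5 (NoCycW5, 12 libraries of week 5 and 11 of week 9). Between the biopsies every cow of every group went through the same ovulation synchronization, which included gonadotropin-releasing hormone, a P4 releasing insert and prostaglandin F2α, so that the week 9 biopsies were timed to the luteal phase of a synchronized estrous cycle. The group is small and mixed as a model. In the study's account its cows had been under P4 shortly before the first of these biopsies and had low P4 at that biopsy, some with no corpus luteum and others with a corpus luteum that held a large fluid cavity. The group held 4 cows in all, so some of its 7 libraries share an animal, but which library came from which cow is not given and all 7 entered the tests as independent. Week, stage of cycle and the hormone treatment cannot be told apart in this comparison.

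The bovine endometrium answers to P4 from the corpus luteum and to estrogens from the follicle. P4 drives the secretory activity of the luteal phase, in which glands and luminal epithelium release nutrients, binding proteins and prostaglandins into the uterine lumen, while estrogen at the end of the cycle raises the oxytocin receptor, whose ligand then evokes the prostaglandin F2α pulses that end the life of the corpus luteum. The question of the comparison was how mRNA abundance changed between a biopsy at low P4 and the synchronized luteal phase in cows that had already ovulated after calving.

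The totals of counted reads were 28307781 to 32715330 in the 4 week 5 libraries and 23545412 to 32264351 in the 3 week 9 libraries. The labels number the libraries 51, 56, 58 and 64 at week 5 and 79, 88 and 94 at week 9, and all values per library stand in that order, as read counts scaled to library size (CPM) after TMM normalization. The Pearson correlation of log2 CPM over all tested genes was 0.969 to 0.971 between week 9 libraries, 0.925 to 0.961 between week 5 libraries and 0.898 to 0.934 between the weeks, so the week 5 libraries varied more among themselves. To place each library between NoCycW5 and CycW5 of week 5, the 4578 genes called between these groups at week 5 were used. The NoCycW5 mean was set to 0 and the CycW5 mean to 1, and the median over genes was taken. These groups differ in cyclicity as well as in P4, so the position is not a measure of P4 or luteal state alone. CycNoP4 libraries took no part in choosing or scaling these genes. The week 5 positions were 0.704, 0.603, 0.355 and 0.134, and the week 9 positions were 1.19, 0.92 and 1.23. In the other groups the week 9 positions ran from 0.09 to 1.25 in NoCycW5 (median 1.03) and from 0.26 to 1.54 in CycW5 (median 1.06). In CycNoP4 the weeks did not overlap, with 0.45 ± 0.26 (SD, n = 4) against 1.11 ± 0.17 (SD, n = 3). At week 5 library 64 lay within the range of the 12 NoCycW5 libraries, -0.17 to 0.24. The 10 CycW5 libraries of week 5 ran from 0.14 to 1.4 with a median of 1.08, but only library 57, at 0.142, lay below 0.69. Libraries 56 and 58 fell in the gap between 0.142 and 0.69, and library 51 lay just above it. Of the CycNoP4 libraries of week 5, library 51 was the farthest from NoCycW5. Over the 1142 of these genes that differed at least 2-fold, the week 5 positions were 0.517, 0.409, 0.224 and 0.22, so library 64 then no longer stood apart from library 58.

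**Figure D1:**
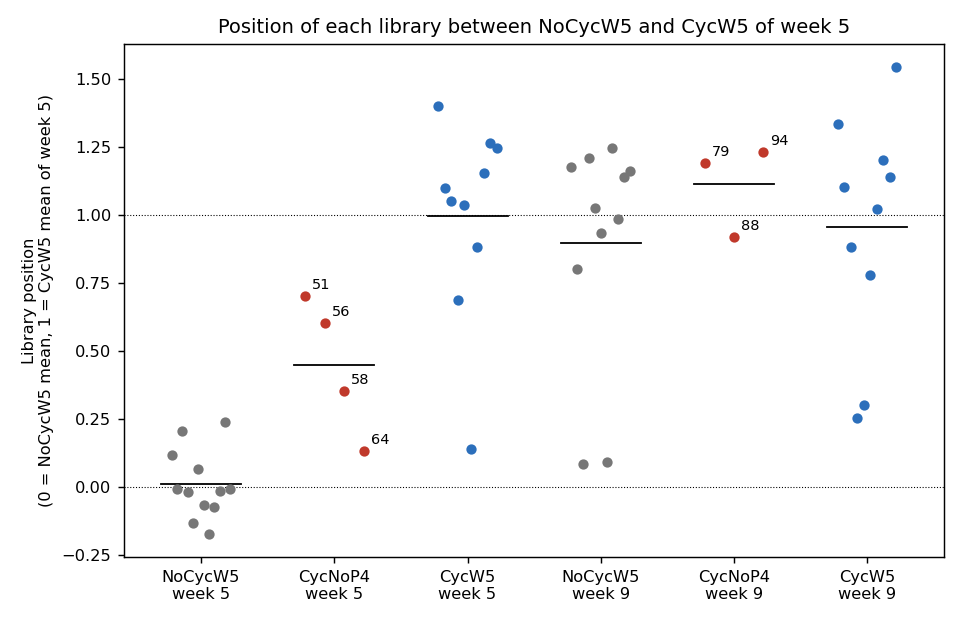
Each point is a library, on the horizontal axis by cyclicity group and week and on the vertical axis by its position, without unit, between the week 5 means of NoCycW5 (0) and CycW5 (1), as a median over 4578 genes. The 4 CycNoP4 libraries of week 5 spread from 0.134 to 0.704, and the 3 of week 9 lie at 0.92 to 1.23.

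Of 16120 genes tested, 3158 (19.6%) differed between week 9 and week 5 in CycNoP4 at a Benjamini-Hochberg adjusted P (BH P) of 0.05 or less, which is the meaning of called here. Of these genes 1570 (9.74%) were higher and 1588 (9.85%) lower at week 9, and 1440 differed at least 2-fold, 758 of them higher. The median log2 fold change over all genes tested was -0.02, and a gene given as higher by a value is higher by that log2 fold change. In 2338 of the called genes all 3 week 9 libraries lay on the same side of all 4 week 5 libraries; over all genes tested 26.3% had no overlap between the weeks. Only 2272 of the genes tested carry a symbol here, because symbols were paired with identifiers through the study's lists of differentially expressed genes (DEG) of its other cows. Of these, 683 (30.1%) were called, 456 (20.1%) higher and 227 (9.99%) lower. A share of higher genes near 20.1%, or of lower genes near 9.99%, in a list of genes with symbols is therefore the background. For a list added after its values were seen, these shares are no fair background, because its members were chosen with the values known. The spread within each group was pooled over all 50 libraries. A fit of the 7 CycNoP4 libraries alone called 1231 of 15195 genes. The counts without libraries 51, 56, 58, 64, 79, 88 and 94 in turn were 1641, 1810, 2335, 4525, 1295, 1895 and 1315. Library 64 was the week 5 library nearest to week 9 in 59.9% of the genes higher at week 9, where it was the highest of the 4, and in 67.3% of the genes lower at week 9, where it was the lowest.

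**Figure D2:**
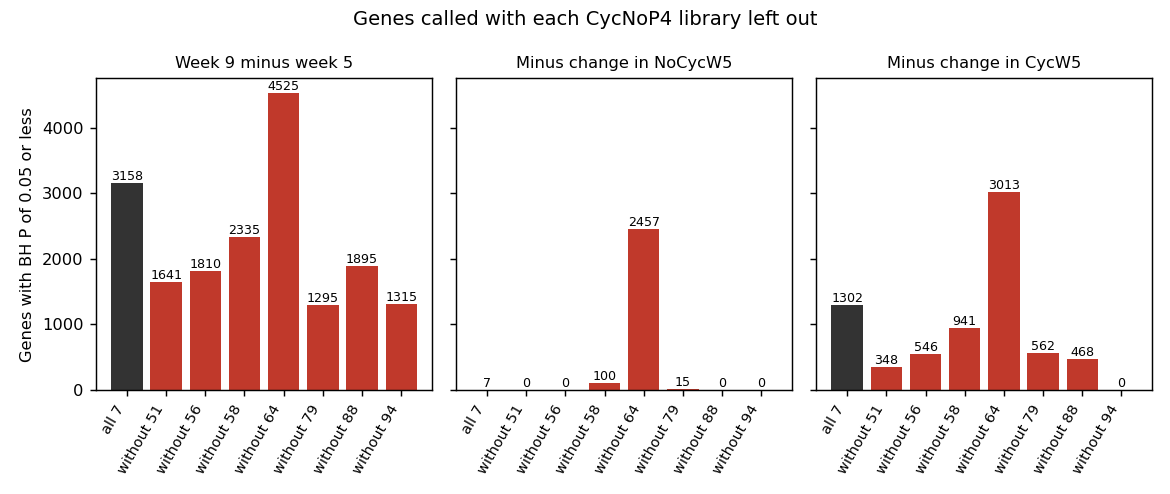
Bars give the number of genes with a BH P of 0.05 or less (vertical axis) with all 7 CycNoP4 libraries and with each left out in turn (horizontal axis), for the week 9 minus week 5 difference and for that difference minus the same difference in NoCycW5 and in CycW5. The counts were 3158, 7 and 1302 with all 7 libraries and 4525, 2457 and 3013 without library 64.

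OXTR, the receptor for oxytocin, fell furthest of the genes of its pathway. It was at 247, 277, 172 and 119.9 CPM at week 5 and at 3.41, 10.02 and 1.58 CPM at week 9 (log2 fold change -5.36, SE 1.46, BH P = 0.0112). Every week 5 library lay far above every week 9 library, but the call was lost without library 79 (BH P = 0.0564) or library 94 (BH P = 0.0601). ESR1, the estrogen receptor alpha, was at 109, 166, 238 and 128 CPM at week 5 and 61, 81.9 and 72.2 CPM at week 9 (log2 fold change -1.16, SE 0.42, BH P = 0.0435). Its weeks did not overlap, although the call was lost when library 56, 58, 79, 88 or 94 was left out. ESR2, the estrogen receptor beta, was at 1.63, 3.8, 6.31 and 4.12 CPM and then at 14.6, 12.6 and 11.4 CPM, without overlap, but did not pass the test (log2 fold change 1.70, BH P = 0.0616). In biopsies of whole tissue, fewer cells of a type and less mRNA per cell cannot be told apart.

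Of 9 tested genes of the prostaglandin and oxytocin pathway, HPGD was higher and OXTR and PTGES were lower. HPGD, which encodes the enzyme that inactivates prostaglandins, was at 115, 49.6, 6.46 and 10.6 CPM at week 5 and 992, 424 and 644 CPM at week 9 (log2 fold change 3.92, SE 0.91, BH P = 0.00478), and this call held in every fit run. PTGES, a prostaglandin E synthase, was at 10.03, 5.88, 11.8 and 13.8 CPM and 1.77, 1.94 and 1.4 CPM (log2 fold change -2.60, BH P = 0.0211), and its call was lost without library 79, 88 or 94. At week 9 the mRNA of the inactivating enzyme was more abundant and that of this synthase less abundant, each without overlap between the weeks. Protein was not measured. PTGS2, the inducible cyclooxygenase, was at 511, 100.0, 14.3 and 19.9 CPM at week 5 and 220.4, 86.3 and 23.5 CPM at week 9 (log2 fold change -0.55, SE 1.12, BH P = 0.753). Library 51 held the highest value of all 7 and the weeks overlapped, and the sign of the PTGS2 change was not stable, at 1.30 without library 51 and 0.31 and 0.55 in the limma-voom fits. PTGFR, the receptor for prostaglandin F2α, was at 1.86, 2.08, 18.8 and 6.55 CPM and 0.205, 2.18 and 0.0311 CPM and did not pass the test (BH P = 0.175). PLA2G4A, which releases arachidonic acid from membranes, had a log2 fold change of 0.19 (BH P = 0.796).

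**Figure D3:**
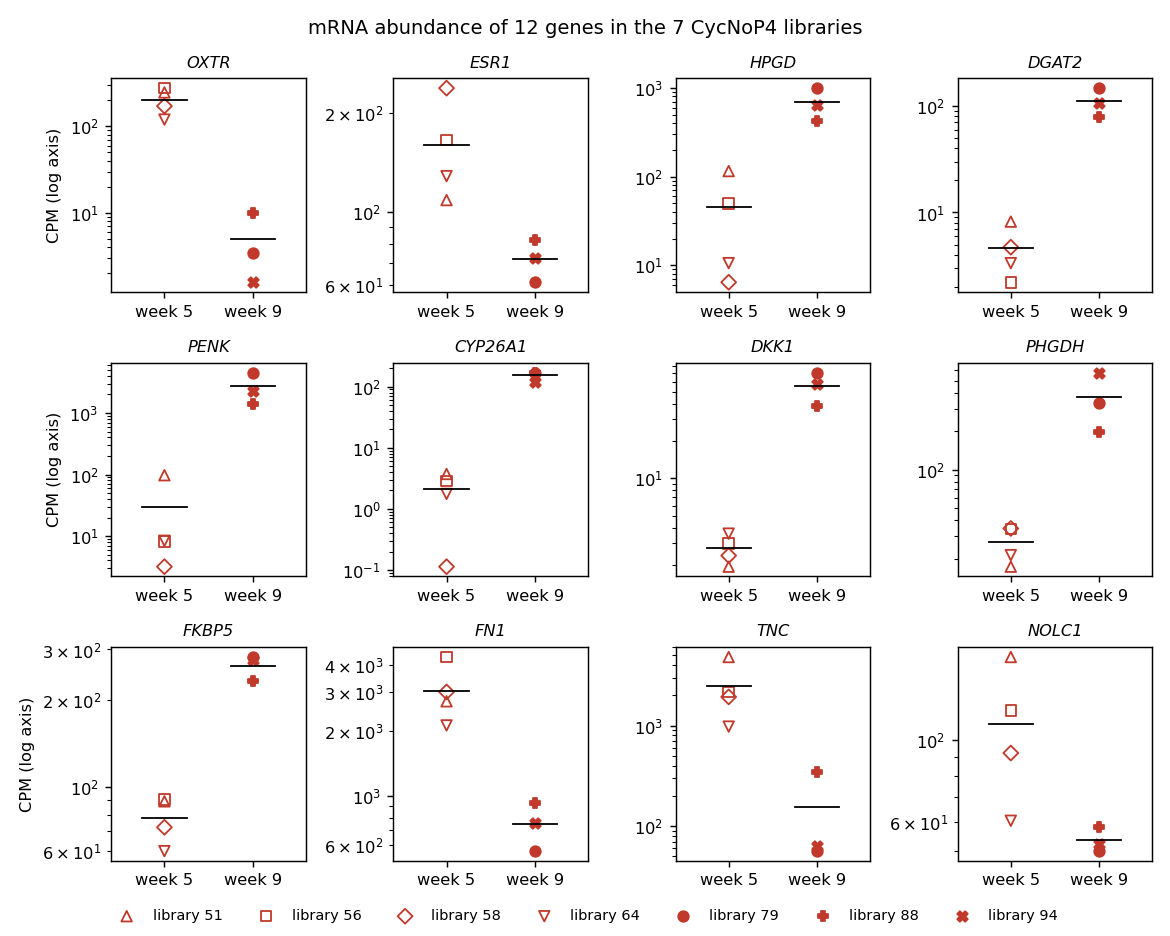
Each panel shows the mRNA abundance of a gene in CPM (vertical log axis) in the 4 week 5 libraries (open) and 3 week 9 libraries (filled) of CycNoP4 (horizontal axis), with a marker shape for each library. OXTR, ESR1, FN1, TNC and NOLC1 lay lower in every week 9 library, and HPGD, DGAT2, PENK, CYP26A1, DKK1, PHGDH and FKBP5 lay higher.

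Genes of the luteal phase endometrium had the highest median log2 fold change of the lists described here, 2.38 over 15 tested genes, of which 7 were higher and 2 lower. Among genes with symbols 20.1% were higher and 9.99% lower. The list as drawn up held 30 genes, and these 15 carry a symbol because the study called them in its CycW5 and NoCycW5 cows. In NoCycW5 11 of the 15 were called higher and 4 lower, with a median of 3.08. The count and median therefore do not describe the whole list. The summed level of the 15 was 2089, 946, 709 and 724 CPM at week 5 and 8776, 3769 and 4488 CPM at week 9. DGAT2, which makes the last step of triglyceride synthesis, was at 8.21, 2.21, 4.72 and 3.34 CPM and then at 147, 79.3 and 106 CPM (log2 fold change 4.59, SE 0.99, BH P = 0.00337). PENK, the precursor of the enkephalin peptides, was at 97.4, 8.15, 3.17 and 8.37 CPM at week 5 and 4544, 1405 and 2256 CPM at week 9 (log2 fold change 6.55, SE 1.84, BH P = 0.0129). Library 51 stood an order of magnitude above the other week 5 libraries for PENK, and every week 9 library was far above it. ENPP4, an ectonucleotide pyrophosphatase, was at 72.8, 79.2, 51.5 and 32.7 CPM and 343, 220.0 and 476 CPM (log2 fold change 2.55, SE 0.51, BH P = 0.00218). These 3 calls held in every fit run. SLC5A1, the sodium-coupled glucose transporter, was at 4.98, 2.51, 0.0378 and 0.439 CPM and 50.04, 31.9 and 7.33 CPM (log2 fold change 3.90, BH P = 0.014). ITGB4, the integrin β4 of epithelial attachment to the basement membrane, was higher by 1.42 (BH P = 0.0181) and ANKRD33B by 2.99 (BH P = 0.0035). PLLP, a membrane protein of epithelia, was higher by 2.53 (BH P = 0.0155), a call lost without library 94.

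The luteal genes that were lower were IGFBP3 and SLC2A5. IGFBP3, a carrier of insulin-like growth factors, was at 595, 191, 213 and 137 CPM and 42.2, 68 and 49.7 CPM (log2 fold change -2.41, SE 0.69, BH P = 0.0143). The first of these values, of library 51, was well above the others, and the call was lost without library 51, 79 or 94. SLC2A5, the fructose transporter, stands on 2 identifiers. The one called (ENSBTAG00000034323) was at 3.99, 4.92, 25.4 and 47.4 CPM and 0.239, 0.889 and 0.0311 CPM (log2 fold change -5.76, SE 1.99, BH P = 0.0362), and the other was not called (BH P = 0.055). The call was lost without library 58, 64, 79, 88 or 94 and in both limma-voom fits. The other 6 of the 15 did not pass the test. MCOLN3, an endolysosomal channel, was at 159, 36.8, 20.6 and 11.9 CPM and 313, 205 and 139 CPM, with library 51 the highest of week 5 and above library 94 (log2 fold change 1.94, BH P = 0.111). LPL, which hydrolyses circulating triglycerides, was at 8.32, 14.7, 17.3 and 8.51 CPM and 11.1, 35.5 and 14.2 CPM (BH P = 0.517). IGFBP1 was at 3.88, 0.132, 25.4 and 0.675 CPM and 137, 52.8 and 0.342 CPM (BH P = 0.268), spread over orders of magnitude at both weeks. The count of higher luteal genes was 5 to 8 when a library was left out, and that of lower ones 0 to 2, with 0 without library 79 or 94.

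Genes that glucocorticoids and P4 induce in many tissues were added as a list after their values were seen, and of 6 tested 5 were higher and 1 lower. In NoCycW5 all 6 were called higher, and 20.1% of genes with symbols were higher in CycNoP4. TSC22D3, known as GILZ, was at 10.2, 8.81, 11.1 and 14.8 CPM and 91.4, 46.6 and 95.5 CPM (log2 fold change 2.79, SE 0.48, BH P = 0.000662). FKBP5, a co-chaperone of steroid receptors, was at 89, 90.3, 72.3 and 59.7 CPM and 282, 233 and 275 CPM (log2 fold change 1.76, SE 0.41, BH P = 0.00484). ZBTB16, a zinc finger transcription factor, was at 1.44, 1.55, 1.77 and 3 CPM and 29.4, 35.8 and 28.6 CPM (log2 fold change 4.004, SE 0.77, BH P = 0.00155). None of these 3 overlapped between the weeks. PER1, of the circadian clock, was higher by 1.77 (BH P = 0.00295) and KLF9, a transcription factor that acts with the P4 receptor, by 0.67 (BH P = 0.0431). SGK1, a kinase of ion transport, went the other way, at 570.2, 102, 69.3 and 99 CPM and 94.2, 90.7 and 90.2 CPM (log2 fold change -1.20, SE 0.44, BH P = 0.0469). That fall rested on library 51: without it the log2 fold change was 0.03 (BH P = 0.969), and the call was also lost without library 79, 88 or 94.

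Among 12 tested genes of Wnt and TGF-β signalling, secreted antagonists and ligands changed in both directions, 4 higher and 4 lower, with a list median of -0.41. The shares among genes with symbols were 20.1% higher and 9.99% lower. DKK1, a secreted Wnt inhibitor, was at 1.94, 2.97, 2.38 and 3.58 CPM at week 5 and 71.2, 38 and 58 CPM at week 9 (log2 fold change 4.36, SE 0.83, BH P = 0.00151). WNT16, a Wnt ligand, was at 5.58, 15.7, 9.1 and 11.1 CPM and 62.6, 37 and 71.9 CPM (log2 fold change 2.46, SE 0.44, BH P = 0.000935). FST, follistatin, which binds and blocks activin, was at 5.09, 10, 8.27 and 5.64 CPM and 108, 87 and 146 CPM (log2 fold change 3.97, SE 0.84, BH P = 0.00314). These 3 genes did not overlap between the weeks. WNT11 was higher by 2.77 (BH P = 0.0131), a call lost without library 94. The lower genes were the ligands BMP7 (-3.005, BH P = 0.0383) and WNT4 (-2.79, BH P = 0.0163), the receptor TGFBR1 (-1.02, BH P = 0.0329) and SFRP2, a secreted Wnt modulator (-1.58, BH P = 0.0307). SFRP2 was at 212, 121, 376 and 64.1 CPM at week 5 and 49.8, 94.2 and 49.8 CPM at week 9, so library 88 lay above library 64, and without library 58 the change was -1.04 (BH P = 0.165). The count of lower genes in the list was 1 without library 51, 1 without library 58, 2 without library 88 and 0 without library 79 or 94, while the count of higher genes was 3 or 4.

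Retinoid metabolism, another list added after its values were seen, had 5 of 10 tested genes higher (against 20.1% of genes with symbols) and 1 lower. CYP26A1, which degrades retinoic acid, was at 3.72, 2.84, 0.113 and 1.76 CPM and 166, 169.7 and 121 CPM (log2 fold change 6.17, SE 1.83, BH P = 0.0173). LRAT, which esterifies retinol for storage, was at 0.874, 3.67, 3.25 and 1.79 CPM and 24.5, 19.3 and 35.1 CPM (log2 fold change 3.45, SE 0.77, BH P = 0.00385), and SDR16C5, a retinol dehydrogenase, was at 7.56, 5.75, 3.02 and 4.93 CPM and 94.1, 64.1 and 75.3 CPM (log2 fold change 3.87, SE 1.01, BH P = 0.00884). All 3 were low in every week 5 library. RDH10 and DHRS3, a pair of enzymes that interconvert retinol and retinaldehyde, were higher by 1.23 (BH P = 0.0148) and 1.11 (BH P = 0.0137). RARA, a retinoic acid receptor, fell from 109, 96, 93.4 and 89.4 CPM to 47.2, 56.6 and 56 CPM (log2 fold change -0.86, SE 0.20, BH P = 0.00478). The call of CYP26A1 was lost in limma-voom (BH P = 0.173). The count of higher genes was 3 without library 94 and 4 to 6 without any other library.

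Of 9 tested genes of one-carbon and serine metabolism, a list likewise added later, 5 were higher (against 20.1% of genes with symbols) and 1 lower. PHGDH, the first enzyme of serine synthesis, was at 17.3, 34.3, 34.6 and 21.3 CPM and 333, 196 and 578 CPM (log2 fold change 3.78, SE 0.72, BH P = 0.00151). MAT1A, which makes S-adenosylmethionine, was higher by 3.47 (BH P = 0.00377), CHDH, of choline oxidation, by 1.59 (BH P = 0.00969), and MTRR, which reactivates methionine synthase, by 1.27 (BH P = 0.0184). CTH, which makes cysteine, was lower (-1.65, BH P = 0.0424) with overlapping weeks. Leaving out a library left 4 or 5 genes higher.

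Peroxisomal fatty acid oxidation, the fourth list added later, had 8 of 11 tested genes higher and none lower, with a median log2 fold change of 1.13. The share of higher genes among those with symbols was 20.1%, and all 11 were also called higher in NoCycW5. CROT, which moves shortened acyl chains to carnitine, was at 35.4, 44.9, 54.7 and 48.4 CPM and 129, 114 and 138 CPM (log2 fold change 1.47, SE 0.33, BH P = 0.00419). AMACR, HSD17B4 and PECR, enzymes of branched or very long chain fatty acids, were higher by 1.85 (BH P = 0.00536), 1.13 (BH P = 0.00706) and 1.40 (BH P = 0.00366). From 6 to 8 genes stayed higher when a library was left out. Of 14 tested genes of sterol synthesis and uptake 1 was higher, with a list median of 0.28. This gene, FDFT1, the first enzyme committed to sterols, was at 105, 203, 122 and 72.5 CPM and 329, 193 and 287 CPM (log2 fold change 1.10, BH P = 0.0337), a call lost without library 51, 58, 64, 79 or 94. The summed level of the sterol list was 1927, 2715, 1097 and 458 CPM at week 5 and 2082, 1414 and 2717 CPM at week 9, so the weeks overlapped and library 64 was the lowest.

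Of 67 tested solute carriers, the membrane transporters, 19 (against 20.1% of genes with symbols) were higher and 4 lower. SLC31A2, a copper transporter, was at 17.9, 13.6, 12.8 and 19.8 CPM and 102, 74.5 and 156 CPM (log2 fold change 2.79, SE 0.58, BH P = 0.00259), and SLC23A1, a vitamin C transporter, was at 9.38, 9.84, 3.21 and 7.16 CPM and 49.4, 38.9 and 48.5 CPM (log2 fold change 2.62, SE 0.58, BH P = 0.00385). SLC27A6, of fatty acid uptake, was at 16.9, 1.58, 3.89 and 1.11 CPM and 265, 122 and 94.1 CPM (log2 fold change 4.78, SE 1.25, BH P = 0.00902). Each was higher in all 3 week 9 libraries. Of the lower genes, SLC1A5, a glutamine transporter, was at 100.1, 43.6, 29.4 and 33.4 CPM and 10.4, 14.7 and 10.2 CPM (log2 fold change -2.13, SE 0.54, BH P = 0.00776), and SLC26A2, a sulfate transporter, was at 19.5, 22.4, 14.7 and 8.37 CPM and 4.4, 2.87 and 2.36 CPM (log2 fold change -2.34, SE 0.62, BH P = 0.00968), with a call lost without library 94. ATP1B2, a β subunit of the sodium pump, was at 14.2, 6.93, 4.5 and 15.9 CPM and 279, 135 and 242 CPM (log2 fold change 4.40, SE 0.79, BH P = 0.000935). The other 3 tested subunits of the pump were not called. The 19 became 13 without library 79 or 94.

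Of the 10 lower genes with the smallest BH P, several act in ribosome assembly or translation. The list of ribosome biogenesis was added after values were seen: of 30 tested genes 22 were lower and none higher, with a median of -0.51. Among genes with symbols 9.99% were lower, but this share is no fair background for members chosen with values known. These 30 also carry a symbol only because the study called them in its CycW5 and NoCycW5 cows. In NoCycW5 19 of the 30 were called lower. NOLC1, a nucleolar chaperone, was at 169, 120.5, 92.4 and 60.5 CPM and 50.01, 58.2 and 52.5 CPM (log2 fold change -1.04, SE 0.20, BH P = 0.00173). RSL1D1 was at 172, 105, 94.5 and 61.9 CPM and 45.8, 52.8 and 49.4 CPM (log2 fold change -1.14, SE 0.26, BH P = 0.00419), and GAR1, of the snoRNPs that modify ribosomal RNA, was at 84.5, 56.3, 52.5 and 26.4 CPM and 21.9, 28.4 and 26.3 CPM (log2 fold change -1.10, SE 0.23, BH P = 0.00294). In all 3 genes library 51 was the highest of week 5 and library 64 the lowest, close to week 9 and, in GAR1, below library 88. FBL, the methyltransferase of ribosomal RNA, was lower (log2 fold change -1.21, BH P = 0.00419). Without libraries 51, 56, 58, 64, 79, 88 and 94 in turn, 7, 12, 20, 22, 8, 17 and 10 genes of the list were lower, and in the fit of the 7 libraries alone 1 was.

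Of 29 ribosomal protein genes tested, 19 were lower and none higher, and the log2 fold changes ran from -0.74 to -0.25. In all 29 every week 9 library lay below every week 5 library, against 12.3% of all genes tested. These 29 carry a symbol because the study called them in its CycW5 and NoCycW5 cows, and all 29 were also called lower in NoCycW5. The share over all genes is therefore not a background for genes chosen in this way. Their summed level in CycNoP4 was 19420, 19080, 22650 and 21250 CPM at week 5 and 14590, 15820 and 15510 CPM at week 9. RPLP2 was at 453, 413, 424 and 412 CPM and 250.0, 259.8 and 286 CPM (log2 fold change -0.68, SE 0.18, BH P = 0.00899) and RPS21 at 232, 224, 239 and 208 CPM and 137, 139 and 130.1 CPM (log2 fold change -0.74, SE 0.19, BH P = 0.00914). Ribosomal proteins have many near-identical processed copies, so reads may be split between copies and single values are uncertain. Without libraries 51, 56, 58, 64, 79, 88 and 94 in turn, 11, 16, 7, 15, 2, 11 and 6 of the 29 were called. The genes share their scaling: these abundant mRNA are read relative to the total of each library, and the median gene moved by -0.02. Of 22 translation factors, also chosen later, 7 were lower, or 4 without library 51 and 3 without library 79. Among them was EEF1D, a subunit of the elongation factor complex, at 258, 256, 258 and 219.9 CPM and 139, 162 and 145 CPM (log2 fold change -0.74, SE 0.16, BH P = 0.0035). SERBP1, a ribosome-associated RNA-binding protein, was at 505, 485, 509 and 366 CPM and 274, 286 and 264 CPM (log2 fold change -0.76, SE 0.15, BH P = 0.00212), and WDR4, of a methyltransferase complex for transfer RNA, was lower (log2 fold change -1.17, BH P = 0.00235). PPRC1, a coactivator of mitochondrial biogenesis, was lower (log2 fold change -1.01, BH P = 0.0035).

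Tubulins, the subunits of microtubules, were lower in 6 of 7 tested genes, with a median of -1.76 in a list also added later. Genes with symbols were lower in 9.99%, a share that is no fair background for members chosen with values known. In NoCycW5 5 of the 7 were also called lower. TUBB6 was at 333, 116, 80.4 and 50.7 CPM and 32.7, 61.2 and 36.9 CPM (log2 fold change -1.74, SE 0.41, BH P = 0.0052) and TUBA1A was at 389, 399, 452 and 168 CPM and 67.4, 148 and 97.7 CPM (log2 fold change -1.76, SE 0.47, BH P = 0.0103). The weeks did not overlap in TUBA1A, while in TUBB6 library 88 lay above library 64. The count was 3 without library 79, 4 without library 51 or 94 and 5 or 6 without any other.

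Of 8 tested extracellular matrix genes 4 were lower (against 9.99% of genes with symbols) and none higher, with a median of -1.37. FN1, fibronectin, was at 2720, 4335, 3002 and 2111 CPM and 562, 936 and 753 CPM (log2 fold change -2.02, SE 0.48, BH P = 0.00572), a call that held in every fit run. TNC, tenascin C, a matrix protein of tissue repair and remodelling, was at 4806, 2154, 1928 and 977 CPM and 56.4, 348 and 63.1 CPM (log2 fold change -3.99, SE 1.32, BH P = 0.03). VCAN, versican, was lower (log2 fold change -1.84, BH P = 0.034). None of these 3 overlapped. THBS2, thrombospondin 2, was at 251, 28.1, 21.3 and 37.8 CPM and 10.1, 10.6 and 7.79 CPM (log2 fold change -3.15, SE 0.91, BH P = 0.0153), and its call was lost without library 51, where the change was -1.61, and without library 79 or 94. TIMP2, an inhibitor of matrix metalloproteinases, was at 692, 414, 256 and 292 CPM and 1966, 1101 and 851 CPM and did not pass (BH P = 0.0569). The count of lower genes was 2 without library 51 and 1, FN1, without library 79 or 94. Of 5 tested collagens none was called.

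Of 10 tested genes of acute inflammation 1, IL6, was lower. IL6 was at 11.5, 0.924, 0.604 and 0.203 CPM and 0.136, 0.283 and 0 CPM (log2 fold change -4.57, SE 1.52, BH P = 0.0307), and without library 51, 79, 88 or 94 it was not called, with a change of -2.06 without library 51. CHI3L1, a secreted glycoprotein of neutrophils and macrophages, was at 46.6, 19.7, 10.2 and 10.4 CPM and 3.89, 2.22 and 0.466 CPM (BH P = 0.172), and PTX3, of innate immunity, was at 10.1, 5.68, 9.03 and 1.82 CPM and 14.3, 21.2 and 51 CPM (BH P = 0.138). The summed level of the list was 274, 139.8, 101 and 135.5 CPM at week 5 and 100.3, 103 and 114 CPM at week 9, so only libraries 51, 56 and 64 lay above week 9. Library 51 also held the highest week 5 values of SGK1, THBS2, IGFBP3, PTGS2, PENK and MCOLN3. Of 9 tested estrogen-responsive genes 4 were lower (ESR1, OXTR, SFRP2 and WNT4) and WNT11 was higher, and the 4 became 2 without library 51 or 58 and 0 without library 79 or 94. LPAR3, a receptor for lysophosphatidic acid, was at 35.1, 8.22, 1.09 and 2.84 CPM and 92.7, 39.7 and 80.2 CPM, short of the test (BH P = 0.0524). IGF-I was at 59.1, 68.3, 49.9 and 7.09 CPM and 23.5, 21.3 and 31.2 CPM (BH P = 0.333) and MUC1, a mucin of the luminal surface, at 81, 77.1, 43 and 61.2 CPM and 72.2, 31.6 and 74.5 CPM (BH P = 0.827).

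**Figure D4:**
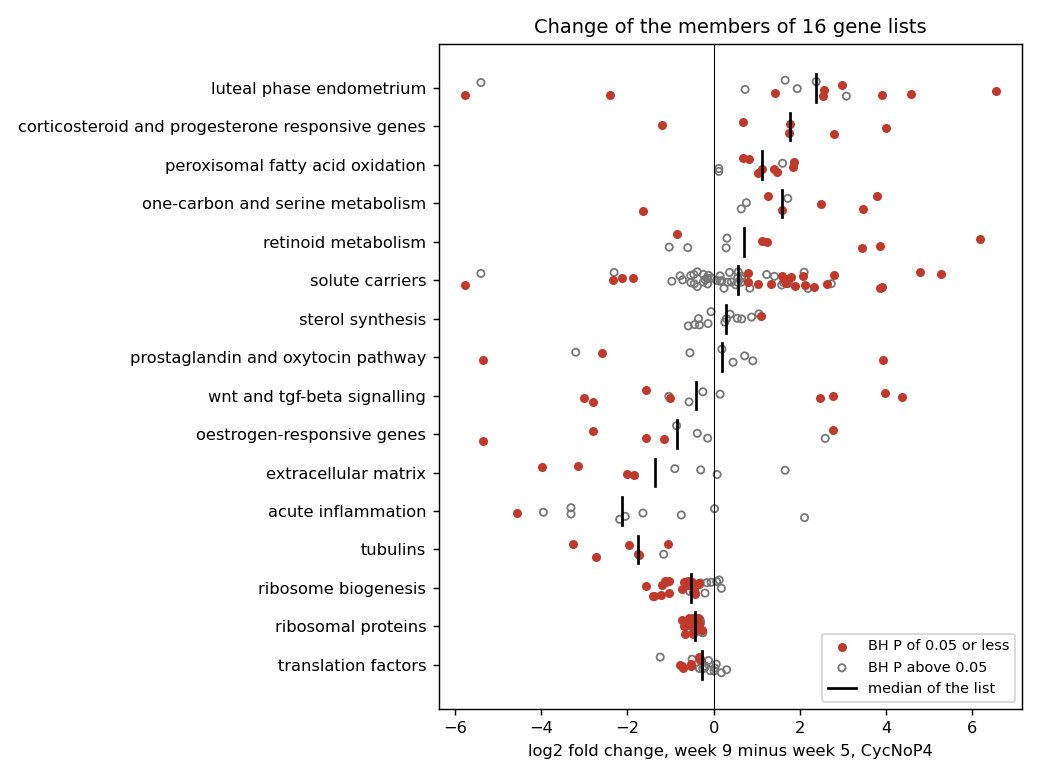
Each point is a gene, by its log2 fold change of week 9 minus week 5 in CycNoP4 (horizontal axis) and its list (vertical axis), filled where the BH P was 0.05 or less, with a bar at the list's median. Medians ran from 2.38 for luteal phase genes to -2.12 for acute inflammation, and all 29 ribosomal proteins lay below 0.

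Markers of epithelium and stroma were detected in every library. Of 7 epithelial markers tested, EPCAM was at 540.4, 387, 338 and 281 CPM and 608, 399 and 283 CPM (BH P = 0.82) and KRT8 at 203, 257, 96.6 and 179.8 CPM and 185, 119.8 and 128 CPM (BH P = 0.289). Both overlapped between the weeks. Over the 7 markers the median log2 fold change was 0.88, with 6 positive and 1 negative. CLDN3 (1.22, BH P = 0.0588), CLDN4 (0.88, BH P = 0.462) and GRHL2 (0.17, BH P = 0.765) were not called either. SOX17, a transcription factor of endometrial glands, was at 20.2, 21.7, 24.9 and 43.6 CPM and 95.8, 76.9 and 116 CPM (log2 fold change 1.80, SE 0.47, BH P = 0.00937), and CLDN7, a tight junction protein, was higher by 1.24 (BH P = 0.0368), a call lost without library 56, 58, 64, 79 or 94. The summed epithelial level was 596 to 1135 CPM at week 5 and 905 to 1463 CPM at week 9, and its part in the results was not tested. PDGFRA, the stromal marker that carries a symbol, was at 727, 269, 343 and 437 CPM and 802, 496 and 958 CPM (log2 fold change 0.76, SE 0.30, BH P = 0.067). None of 5 endothelial markers was called. CTLA4, of lymphocytes, was at 0.38, 0.165, 0.264 and 0.304 CPM and 0.0682, 0.0808 and 0.0311 CPM, and CCNO, of ciliated cells, was at 0, 0.033, 0.529 and 3.71 CPM and 0.136, 0 and 0.0311 CPM. Neither was called, and in CCNO library 64 stood above the rest. Markers of macrophages, smooth muscle and erythroid cells, and interferon-stimulated genes, carry no symbol here and were not analysed.

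Some of the called genes with the smallest BH P belong to none of these lists. RND2, a small GTPase, was at 2.51, 2.01, 2.38 and 4.49 CPM and 12.7, 12.2 and 25.6 CPM (log2 fold change 2.56, SE 0.38, BH P = 0.000314), and TOX, a DNA-binding protein known from T cells, was at 5.58, 5.12, 10.2 and 8.47 CPM and 41.9, 44.7 and 58.7 CPM (log2 fold change 2.72, SE 0.44, BH P = 0.000648). RUBCNL, of autophagy, was at 25.5, 10.5, 10.3 and 15.9 CPM and 122, 61.6 and 109.8 CPM (log2 fold change 2.65, SE 0.45, BH P = 0.000648). All 3 were higher in every week 9 library. KIAA1456, RMND5B and MALSU1, an assembly factor of the mitochondrial ribosome, were higher by 3.05, 1.51 and 1.57 (BH P = 0.000648, 0.000653 and 0.000648). The lipases DDHD2 and ABHD16A were higher by 0.99 (BH P = 0.000662) and 0.93 (BH P = 0.0007). PLCD4, a phospholipase C, was at 8.24, 8.68, 7.33 and 19.2 CPM and 41.2, 54.5 and 95.2 CPM (log2 fold change 2.55, SE 0.44, BH P = 0.0007). The weeks did not overlap in any of these 9 genes, and each was called in every fit run, with the change of MALSU1 at 1.0 without library 94. Both traits are favoured by the choice of genes with a small BH P, so they add no support. Among all 3158 called genes 2338 had no overlap.

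A few genes were close to absent at week 5. CHRNA2, a nicotinic acetylcholine receptor subunit, had 0 reads in all 4 week 5 libraries and 26.6, 11.3 and 34.7 CPM at week 9, 2177 reads in all, so with a floor of 3 reads over the week it was at least 948-fold higher (BH P = 0.00776, or 0.1 in limma-voom with weights for library quality). NXPH2, a neurexophilin, had 1 read at week 5 and 66 at week 9, a ratio of 86.2 after scaling to library totals (95% counting interval 14.9 to 3460). FMO2, a flavin monooxygenase, was at 1.18, 1.06, 0.302 and 0.203 CPM and 45.8, 24.8 and 41.3 CPM (log2 fold change 5.76, SE 1.39, BH P = 0.00608), and LY6G6C was at 1.9, 1.42, 0.0378 and 0.709 CPM and 81.3, 55.4 and 41.9 CPM (log2 fold change 5.86, SE 1.59, BH P = 0.0107). The calls of FMO2 and LY6G6C were lost in limma-voom (BH P = 0.121 and 0.185). Intervals and floors cover counting error only.

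In the other direction, A4GALT, the synthase of the glycolipid Gb3, was at 139, 114, 78 and 27.6 CPM and 20.2, 18.4 and 22.2 CPM (log2 fold change -2.15, SE 0.47, BH P = 0.0034). GALNT7, an enzyme of O-linked glycosylation, was at 73.7, 66, 53.6 and 49.6 CPM and 36.7, 19.4 and 22.5 CPM (log2 fold change -1.21, SE 0.26, BH P = 0.00327), and HES1, a Notch target, was at 37.7, 42.5, 35 and 42.6 CPM and 13.4, 17.4 and 17.6 CPM (log2 fold change -1.29, SE 0.29, BH P = 0.00396). In A4GALT library 64 lay close to week 9, and in HES1 all week 5 libraries were alike. KCNE3, a potassium channel subunit, was at 49.7, 20.8, 24.2 and 14.9 CPM and 1.02, 1.98 and 0.373 CPM (log2 fold change -4.61, SE 1.69, BH P = 0.047), and CLDN10, a claudin of ion-permeable junctions, was at 117, 235, 389 and 56.1 CPM and 8.73, 13.7 and 6.99 CPM (log2 fold change -4.35, SE 1.32, BH P = 0.0191). KIF12, a kinesin, was at 6.61, 21.1, 39.5 and 64.7 CPM and 1.4, 1.41 and 1.74 CPM (log2 fold change -4.44, SE 1.37, BH P = 0.021), and ADAMTS18, a matrix protease, at 22.4, 20.2, 18.5 and 7.26 CPM and 0.409, 0.889 and 0.87 CPM (log2 fold change -4.56, SE 1.40, BH P = 0.0203). The calls of these 4 genes were lost without library 79, 88 or 94, and that of KCNE3 also without library 51, 56 or 58, while their log2 fold changes stayed at -3.80 or lower in every fit run. AOX1, an aldehyde oxidase, was at 1111, 553, 513 and 124 CPM and 150.2, 107 and 79.4 CPM (log2 fold change -2.36, SE 0.60, BH P = 0.00794). RAB20, of vesicle transport, and SDC4, a heparan sulfate proteoglycan, were lower (log2 fold change -2.45, BH P = 0.0105, and -1.61, BH P = 0.0102), and both calls were lost without library 51 or 94. SDC4 was at 390.2, 73.4, 57.8 and 62.5 CPM and 56.2, 50.4 and 37 CPM, with library 51 far above the rest, and without it the SDC4 change was -0.43 (BH P = 0.382).

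The change in CycNoP4 was set beside that in NoCycW5, whose cows had P4 below the detection limit at week 5 and had not been cycling. In NoCycW5 5551 genes (34.4%) were called between the weeks. Of the 3158 genes called in CycNoP4, 1452 (46%) were among them, which is 26.2% of the NoCycW5 calls, and 1423 of the 1452 had the same sign. The difference between the changes was called in 7 genes (0.0434%), 3 positive (0.0186%) and 4 negative (0.0248%), none with a symbol, and 3643 genes had an unadjusted P of 0.05 or less. A gene with a positive difference, ENSBTAG00000018007, was at 134, 167, 189 and 266 CPM and 249, 309.9 and 307 CPM in CycNoP4, a log2 fold change of 0.61, against -0.50 in NoCycW5 (difference 1.11, BH P = 0.0415). A gene with a negative difference, ENSBTAG00000004086, was at 88.8, 66.4, 52.4 and 50.1 CPM and 38.3, 25.5 and 25.1 CPM, a log2 fold change of -1.12 against 0.33 (difference -1.45, BH P = 0.0269). The count varied with the library left out. It was 2457 without library 64, 100 without library 58 and 15 without library 79. With edgeR's test it was 0 without library 51, 56, 88 or 94, where 2463 to 2808 genes had an unadjusted P of 0.05 or less. DESeq2 called 763 genes with all libraries. A small count here does not show that the groups changed alike.

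For the genes named, the differences from NoCycW5 are therefore given as values. The smallest P values of a positive difference among genes with symbols were those of NXPH2, PLCD4, TOX, MALSU1 and ZC3HC1, at a BH P of 0.0609, 0.0612, 0.054, 0.0583 and 0.063. Those of a negative difference were TMF1, SGK1, S100A2, FAM213A and SERPINA1, at 0.0531, 0.0531, 0.0531, 0.0531 and 0.054. OXTR changed by -5.36 in CycNoP4 and -1.69 in NoCycW5 (BH P of the difference 0.132), from 204 ± 71.2 CPM (mean ± SD, n = 4) and 123 ± 41.7 CPM (n = 12) at week 5 to 5 ± 4.44 CPM (n = 3) and 38.2 ± 52.4 CPM (n = 11) at week 9. The NoCycW5 libraries of week 9 ran from 2.84 to 162 CPM with a median of 9.1 CPM, so their mean lay far above their median. SGK1 changed by -1.20 and 0.98, PTGS2 by -0.55, of unstable sign, and 3.36 (BH P = 0.105), and MCOLN3 by 1.94 and 5.26 (BH P = 0.0919). For PTGS2 the week 5 level was 161 ± 236 CPM in CycNoP4 and 25.5 ± 12.5 CPM in NoCycW5. TOX, with its BH P given above, changed by 2.72 and 0.80. All 14 sterol genes tested were called higher in NoCycW5, with a median of 1.55 against 0.28 in CycNoP4, yet none had a called difference. Without library 64, 9 of the 14 did, each negative. These genes carry a symbol only because the study called them in tests on its CycW5 and NoCycW5 cows. That choice favours a change in NoCycW5, so the 2 medians are not on an equal footing. Without library 64, 26 of the 76 named genes differed from NoCycW5, against 0 with it. HPGD, CYP26A1 and SLC23A1 changed by 3.92 and 4.07, 6.17 and 6.04, and 2.62 and 2.81, each pair closer than 1 standard error.

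**Figure D5:**
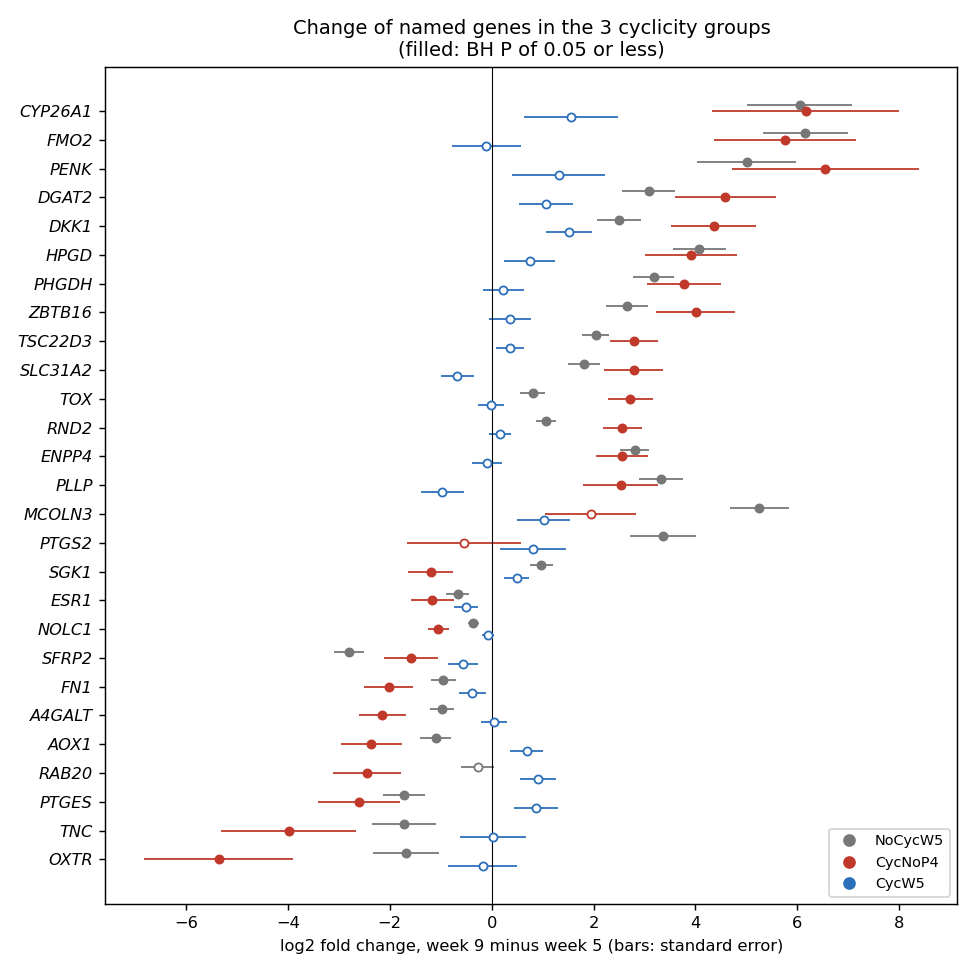
Log2 fold changes of week 9 minus week 5 (horizontal axis, with bars of 1 standard error) are shown for some of the named genes (vertical axis) in NoCycW5, CycNoP4 and CycW5, filled where the BH P was 0.05 or less. In CycNoP4 OXTR lay at -5.36 and SGK1 at -1.20, while PTGS2 and MCOLN3 were not called in CycNoP4 and lay at 3.36 and 5.26 in NoCycW5.

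Beside CycW5, whose cows were already under P4 influence at week 5, the change in CycNoP4 differed in 1302 genes (8.08%), 638 positive (3.96%) and 664 negative (4.12%). In CycW5 itself 20 genes (0.124%) were called between the weeks, 10 higher (0.062%) and 10 lower (0.062%). Of the 76 named genes 47 had a called difference, 24 positive and 23 negative. OXTR changed by -5.36 in CycNoP4 and -0.18 in CycW5 (difference -5.18, BH P = 0.033). The CycW5 levels were 45.2 ± 40.1 CPM at week 5 and 40.02 ± 60.5 CPM at week 9 (mean ± SD, n = 10 each), with medians of 43.1 and 6.72 CPM. At week 9 the CycW5 libraries ran from 2.64 to 178 CPM, so a mean change near 0 does not describe most of them. At week 5 libraries 51, 56 and 58 lay above the whole CycW5 range of 5.2 to 151 CPM and library 64 within it. PTGES changed by -2.60 and 0.87 (difference -3.47, BH P = 0.02) and HPGD by 3.92 and 0.74 (difference 3.17, BH P = 0.0401). Of the luteal phase genes 5 of 15 differed, all positive, among them DGAT2 (3.52, BH P = 0.0346) and ENPP4 (2.64, BH P = 0.0107). For PENK, at 6.55 and 1.32, the difference did not pass (BH P = 0.0692), with CycW5 at 1065 ± 1257 CPM at week 5. RND2, TOX and SLC31A2 differed by 2.41, 2.73 and 3.46 (BH P = 0.00638, 0.0068 and 0.00731), and RAB20 and AOX1 by -3.36 and -3.04 (BH P = 0.0107 and 0.0107). Of the ribosomal proteins 3 of 29 and of the ribosome biogenesis genes 6 of 30 differed, each negative. The count varied with the library left out. Without library 94 0 genes were called with edgeR's quasi-likelihood test, with 3538 at an unadjusted P of 0.05 or less. Without libraries 51, 56, 58, 64, 79 and 88 in turn 348, 546, 941, 3013, 562 and 468 were called. At that unadjusted P there were 3959 genes without library 79 and 3991 without library 88. Why the counts differ was not tested.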

How the data were processed

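Endometrial mRNA was measured in 50 libraries by single-end sequencing of stranded libraries. According to the study's methods and the labels, the authors trimmed adapters and low quality bases, used Hisat2 for alignment against the bovine UMD3.1 build, and obtained counts per Ensembl gene from FeatureCounts. The labels also name StringTie and edgeR. The authors deposited raw counts, whole reads on 18830 genes, with no normalization. Groups came from the cyclicity and week labels.

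Counts of all 50 libraries were TMM normalized, filtered with filterByExpr and fitted as 6 group means with edgeR 4.0.16 (robust quasi-likelihood F test, R 4.3.3), and genes were called at a BH adjusted P of 0.05 or less over all genes tested. CPM values are TMM normalized. Log2 CPM used a prior count of 2. The contrasts were week 9 minus week 5 in CycNoP4, and that change minus the change in NoCycW5 and in CycW5. BH P in the text is from this test unless another tool is named. Nothing in the labels says that libraries of a group came from separate cows, so P values measure the spread between libraries. A permutation of the 7 libraries could not reach 0.05 (smallest two-sided exact P = 0.0571 over 35 arrangements), so summed levels of lists were given without a test. Scripts were tested on simulated data.

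Symbols were paired with 2344 identifiers through the study's supplementary lists of genes, which cover genes called in its other cows. PGR, AKR1B1, SERPINA14, LTF, MKI67, TOP2A and FOXJ1 could not be paired. Members, gene lists and tests were chosen with earlier results of these data known, and 8 lists (ribosome biogenesis, translation factors, tubulins, corticosteroid and progesterone responsive genes, peroxisomal fatty acid oxidation, retinoid metabolism, one-carbon and serine metabolism, sodium pump subunits) were added after the values were seen. The 76 genes named by rule were the 10 higher and 10 lower called genes with the smallest BH P, the 5 higher and 5 lower with the largest fold change among those at 5 CPM or more in every library of the higher week and without overlap, the 5 positive and 5 negative genes with the smallest BH P in each difference between changes, up to 2 higher and 2 lower called genes of each list, and a set that was always named. Other genes were named after their values were seen. Some of these genes are not reported here.

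Alternatives were the fit of the 7 libraries alone, DESeq2 size factors, DESeq2 1.42.0, limma-voom (3.58.1), the same with weights for library quality, omission of the filter, a filter at 1 CPM in 10 libraries, and each of the 7 libraries left out.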

Additional observations from a re-analysis of the deposited data

Results flagged for a closer look

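Among the 4 week 5 libraries, 13 of 98 values tested held a library that stood apart from the other 3 by the gap to its neighbour relative to the range. The rule gives about 1 in 20 only for independent, normally distributed values. These CPM values come from the same 4 libraries and many are skewed, so the count cannot be set against that rate. Library 51 was the highest for PENK (97.4 against 8.37 CPM), SGK1 (570.0 against 102 CPM), SDC4 (390.0 against 73.4 CPM), IGFBP3 (595 against 213 CPM), THBS2 (251 against 37.8 CPM), IL6 (11.5 against 0.924 CPM) and MCOLN3 (159 against 36.8 CPM), where the second value is that of the nearest library, and for the summed level of corticosteroid and progesterone responsive genes (717 against 271 CPM). Library 58 was the highest for IGFBP1 (25.4 against 3.88 CPM) and held the one NXPH2 read of week 5 (0.0378 CPM). Library 64 was the highest for PLCD4 (19.2 against 8.68 CPM) and the lowest for SERBP1 (366 against 485 CPM) and EEF1D (220.0 against 256 CPM).

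By the test of the difference itself, the week 9 minus week 5 change of CycNoP4 differed from that of CycW5 in 1302 genes and from that of NoCycW5 in 7. Of the named genes, 47 differed from CycW5, with a BH P of 0.00638 to 0.0487. Among them the log2 difference was positive for FMO2 (5.86), DGAT2 (3.52), PLLP (3.50), SLC31A2 (3.46), HPGD (3.17), WNT11 (3.01), DKK1 (2.83), TOX (2.73), PLCD4 (2.68), ENPP4 (2.64), KIAA1456 (2.63), SLC23A1 (2.53), TSC22D3 (2.43), RND2 (2.41), WNT16 (2.13), RUBCNL (2.01), CLDN7 (1.65), MALSU1 (1.51), RMND5B (1.21), DDHD2 (0.87) and ABHD16A (0.74). It was negative for IL6 (-6.43), OXTR (-5.18), CLDN10 (-4.85), PTGES (-3.47), RAB20 (-3.36), AOX1 (-3.04), WNT4 (-2.87), SLC26A2 (-2.22), A4GALT (-2.19), SDC4 (-2.08), SLC1A5 (-2.07), SGK1 (-1.69), FN1 (-1.64), GALNT7 (-1.31), WDR4 (-1.12), RSL1D1 (-1.07), HES1 (-1.03), NOLC1 (-0.97), GAR1 (-0.91), SERBP1 (-0.74), RPLP2 (-0.71), RPS21 (-0.70) and EEF1D (-0.64). CHRNA2 (BH P = 0.0344) and NXPH2 (BH P = 0.00737), with 0 and 1 reads at week 5 in CycNoP4, also had a positive difference, for which no size is given. None of these 47 differences was called with library 94 left out.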

How the results depend on the processing

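No paired analysis was possible because the labels do not link a week 5 library to a week 9 library. The count of 3158 genes between the weeks became 1231 in the 7 libraries alone and 4952 in limma-voom with library quality weights, and it ranged from 1295 to 4525 with a library left out, the most without library 64. The 7 genes that differed from NoCycW5 became 64 with DESeq2 size factors, 763 in DESeq2, 2542 with library quality weights and 117 with the stricter filter, and 0 to 2457 with a library left out. The 1302 genes that differed from CycW5 became 2175 in DESeq2 and 746 in limma-voom, and 0 to 3013 with a library left out. Beside the counts of 0, 2463 to 2808 genes (NoCycW5) and 3538 genes (CycW5) had an unadjusted P of 0.05 or less. The causes were not tested. Of the 63 named genes that were called, 40 kept the call with every library left out, 42 in every other alternative and 30 in all of them. Of 1061 values of named genes under alternatives, 936 kept direction and side of the threshold, 109 lost the call, 11 gained it and 5 changed sign. With a library left out, SGK1 ranged from -1.49 to 0.03, PTGS2 from -1.59 to 1.30 and MUC1 from -0.37 to 0.14, and PTGS2 was at 0.31 in limma-voom and 0.55 with library quality weights. NOLC1, GAR1, RSL1D1, WDR4, PPRC1 and AOX1, among others, lost their calls in the 7 libraries alone. For genes with a few reads per library, such as NXPH2, depth limits how well the size of a difference is known.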

Other observations

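Some genes outside the naming rule had no reads at one of the weeks, and they were chosen after their values were seen. IL31RA, a subunit of the interleukin 31 receptor, had 0 reads at week 5 and 2.08, 6.91 and 19.9 CPM at week 9 (BH P = 0.00188), 874 reads in all, at least 381-fold higher against a floor of 3 reads over the week. CRHR1, a receptor for corticotropin-releasing hormone, was at 0.152, 0.957, 3.48 and 0.473 CPM at week 5 and had 0 reads at week 9 (BH P = 0.0439), at least 35.5-fold lower. Of 7 claudins tested 3 were higher at week 9 and CLDN10 was lower. CLDN8 was at 19.2, 14, 30.5 and 15.9 CPM and 149.9, 144 and 93.3 CPM (log2 fold change 2.70, SE 0.88, BH P = 0.0271), and CLDN16 was at 1.56, 1.06, 1.13 and 1.99 CPM and 3.85, 4.44 and 3.94 CPM (BH P = 0.0207). With library 79 or 94 left out no claudin was called. Of the collagens of basement membrane, COL4A3 was at 1.48, 12.6, 5.48 and 14.1 CPM and 13.1, 29.9 and 73.1 CPM and COL4A4 at 3.88, 35.7, 19.7 and 27.6 CPM and 33.4, 57.2 and 127 CPM, and neither passed the test (BH P = 0.0893 and 0.103). MUC5B, a secreted mucin, was at 47.7, 8.52, 61.8 and 4.12 CPM and 2.01, 0.929 and 0.994 CPM (BH P = 0.136).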
